A study of Saccharomyces cerevisiae with 14 samples.

Results

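The 6 genes described here encode DNA-binding repressors of budding yeast that work through the Rpd3 histone deacetylase: XBP1, STB3, DOT6, TOD6, UME6 and ASH1. They were taken by name from the table of 6598 genes, and all 6 had a value in each of the 6 conditions. RNA sequencing had been done on W303 cells with the RPD3 gene deleted and on wild-type W303 cells, at 3 harvests. Log cells were growing at an OD600 of 0.4 to 0.6. DS (diauxic shift) cells were taken 2 hours past glucose exhaustion, and Q (quiescent) cells were purified on a Percoll gradient from cultures grown for 7 days. Each mutant condition had 2 libraries from 2 isolates, and so did wild-type DS and Q, while wild-type log had 4 libraries from 2 isolates. Those 4 had 0.2 spike equivalents in 2 libraries and 1 in the other 2, against 1 in every other library, and how the 2 amounts entered the wild-type log value, on which each comparison with it rests, is not stated. No other allele or drug is given in the labels, and Q values describe the purified dense fraction, not the whole culture.

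Rpd3 removes acetyl groups from histone tails and acts in a large complex, Rpd3L, and a small one, Rpd3S, both built on the scaffold Sin3. The large complex is brought to promoters by DNA-binding repressors, which supply the choice of gene. Ume6 binds the URS1 element of early meiotic and metabolic genes. Dot6 and its paralog Tod6 bind the PAC element, and Stb3 binds the RRPE element, both found before genes for ribosome biogenesis; these repressors are held in check in growing cells by the TOR and protein kinase A pathways. Xbp1 is a repressor induced by starvation and stress that acts on cyclin genes, and Ash1 accumulates in daughter cells, where it keeps the HO endonuclease gene off.

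A set of 5 short letter runs were sought on both strands in windows from 250 bases before to 50 bases after the start codon of 6001 protein-coding genes of the RefSeq R64 reference, which is strain S288C and not W303. PAC (GCGATGAG) was in 3.93% of the windows, RRPE (AAAATTTT) in 9.03%, the Xbp1 site (CTCGAG) in 5.33%, the URS1 core (TAGCCGCC) in 1.17% and the stress element STRE (AGGGG) in 21.6%. Matches of different runs may overlap. The window of TOD6 itself held 2 PAC matches, which begin 237 and 216 bases before its start codon, and 2 of the 6001 windows held 2 or more. The windows of XBP1, STB3, DOT6, UME6 and ASH1 held none of the 5 runs, which says only that these letters are not in those windows. The first 80 bases of the windows of the paralogs TOD6 and DOT6 are shown to compare them, with PAC in capitals; they lie at chrII:117339-117418 (plus strand) and chrV:335359-335438 (minus strand), and each reads towards its gene.
TOD6: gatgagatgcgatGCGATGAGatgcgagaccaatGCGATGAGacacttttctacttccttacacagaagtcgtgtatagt
DOT6: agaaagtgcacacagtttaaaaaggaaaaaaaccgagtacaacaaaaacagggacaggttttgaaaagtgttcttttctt

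Sites of 30 bases from 3 ribosome biogenesis genes show the letters read by the growth-gene repressors, the first match of each gene with the element in capitals. They lie at chrVII:807824-807853 and chrVII:807809-807838 for NSR1 (minus strand), chrVII:695276-695305 and chrVII:695266-695295 for NOP7 (plus strand), and chrXIV:413474-413503 and chrXIV:413484-413513 for DBP2 (plus strand), PAC first and RRPE second for each gene. In NSR1 and DBP2 the PAC letters run on the opposite strand and read CTCATCGC. The PAC and RRPE matches lay so close that each printed site overlaps its partner.
NSR1 PAC: gcaagggcagCTCATCGCaagaacgaaaat
NSR1 RRPE: cgcaagaacgAAAATTTTcaatccaatatt
NOP7 PAC: aaaattttttGCGATGAGatgagatgagaa
NOP7 RRPE: aaaattaaagAAAATTTTttgcgatgagat
DBP2 PAC: tacgccgatgCTCATCGCagaaaatttttc
DBP2 RRPE: ctcatcgcagAAAATTTTtccttcagttta

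Sites of the same length from 5 genes bound by Ume6 carry the URS1 core in capitals, read as TAGCCGCC or, on the opposite strand, as GGCGGCTA. They lie on the plus strand at chrXVI:339777-339806 for CAR1 (arginase), chrIX:226421-226450 for HOP1 (meiotic chromosome axis), chrVIII:131940-131969 for SPO13 (meiotic division), chrV:548271-548300 for DMC1 (meiotic recombinase) and chrXIII:536105-536134 for REC114 (meiotic break formation).
CAR1: cacttagcggTAGCCGCCgaggggtctaaa
HOP1: ttttaacctgGGCGGCTAaattgtacttta
SPO13: tattgagaaaTAGCCGCCgacaaaaaggaa
DMC1: gaccggaaaaTAGCCGCCcaaggataaact
REC114: ttacaaggtgGGCGGCTAacttataaaaag

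The values are FPKM, fragment counts divided by transcript length and library size, which the authors scaled with ERCC spike-in transcripts to RNA content per cell. The table has 1 value per condition, so no spread between isolates, no test and no p can be given, and every difference below is a description. Changes are given on the log2(FPKM + 1) scale, as the first-named condition minus the second; this scale understates the change of genes near or under 1 FPKM. A gene was counted as higher or lower when it differed by at least 2-fold, which is 1 on this scale. RPD3 checked the labels: it was blank, 0.941 and 0.0279 FPKM in mutant log, DS and Q cells, against 70.8, 37.7 and 2.35 FPKM in wild-type cells.

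The per-cell scale moved the whole transcriptome, which bears on every value of Q cells. The median gene stood at 50.2, 33.9 and 19.0 FPKM in mutant log, DS and Q cells, against 38.0, 20.1 and 1.37 FPKM in wild-type cells. In wild-type Q cells 42.1% of genes were below 1 FPKM, while the share was 2.59% in mutant Q cells. The members' levels added up to 244, 218 and 158 FPKM in mutant log, DS and Q cells and to 216, 120 and 20.1 FPKM in wild-type cells. For this reason changes are read against the median of all genes in the same comparison: for mutant over wild type 0.25 in log cells, 0.64 at DS and 2.81 in Q cells, for DS and Q over log -0.52 and -1.39 in the mutant and -0.85 and -3.87 in wild type. Positions within a condition are given as percentiles, which do not depend on the scale. How much of a change in Q cells is per-cell RNA content and how much is the gene itself cannot be told apart from the deposited scale alone.

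**Figure D1:**
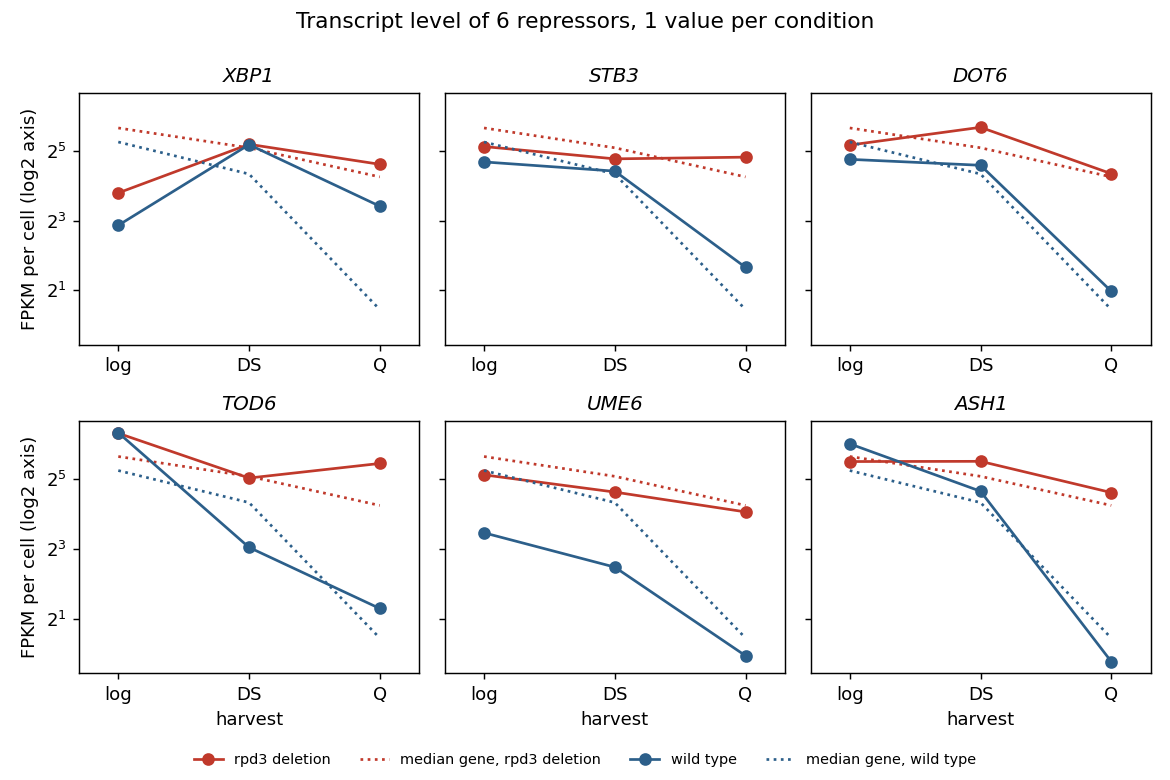
FPKM of each repressor (log2 axis) at the log, DS and Q harvests in the rpd3 deletion (red) and wild type (blue), 1 authors' value per condition with no error bar available; dotted lines are the median gene of the same strain. In wild-type Q cells the members range from 0.859 to 10.6 FPKM, and in mutant Q cells from 16.7 to 43.7 FPKM.

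The plot of levels shows 3 shapes in wild-type cells. XBP1 was the one member higher in DS than in log cells by 2-fold; TOD6 and ASH1 were lower by more than 2-fold; STB3, DOT6 and UME6 were within 2-fold. Against the log harvest, 1 member was at least 2-fold higher in wild-type DS cells, where 9.91% of genes were higher, and 2 were lower, where 44.2% of genes were lower. In wild-type Q against log cells no member was higher (1.84% of genes) and 5 were lower (93.2% of genes). In wild-type Q against DS cells no member was higher (0.171% of genes) and all 6 were lower (94.6% of genes). The 2 counts for Q cells are near the background and say little about these genes. With every condition rescaled to a common median gene, 3 members were higher and 1 was lower in wild-type Q than log cells, and 4 were higher and none was lower in wild-type Q than DS cells.

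In the mutant the same harvest comparisons had fewer members lower by 2-fold, and the share of all genes that were lower was smaller too. For DS over log, Q over log and Q over DS it was 28.6%, 64.9% and 40.6%, against 44.2%, 93.2% and 94.6% in wild type. In mutant DS against log cells 1 member, XBP1, was higher (7.54% of genes) and 1, TOD6, was lower (28.6% of genes). In mutant Q against log cells, no member was higher (4.36% of genes) and 1, UME6, was just past 2-fold lower (64.9% of genes). In mutant Q against DS cells, no member was higher (2.68% of genes) and 1, DOT6, was lower (40.6% of genes). With columns rescaled to a common median gene no member was lower in any of these 3, and 2, 2 and 1 were higher; with a pseudocount of 10 XBP1 at DS (0.96) and UME6 in Q cells (-0.75) were within 2-fold. All 6 members stood above the median change of all genes in mutant Q against log cells, with changes from -1.02 to 0.78 and an all-gene median of -1.39.

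Between genotypes the count of members grew with the harvest, and so did the background. In mutant against wild-type log cells 1 member, UME6, was higher (10.2% of genes) and none was lower (3.38% of genes). At DS 3 members, DOT6, TOD6 and UME6, were higher (31.3% of genes) and none was lower (3.61% of genes). In Q cells all 6 were higher (94.5% of genes) and none was lower (0.343% of genes), so that count is no more than the background. With every condition rescaled to a common median gene, 1 member, ASH1, was higher and 1, XBP1, was lower in mutant than in wild-type Q cells.

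**Figure D2:**
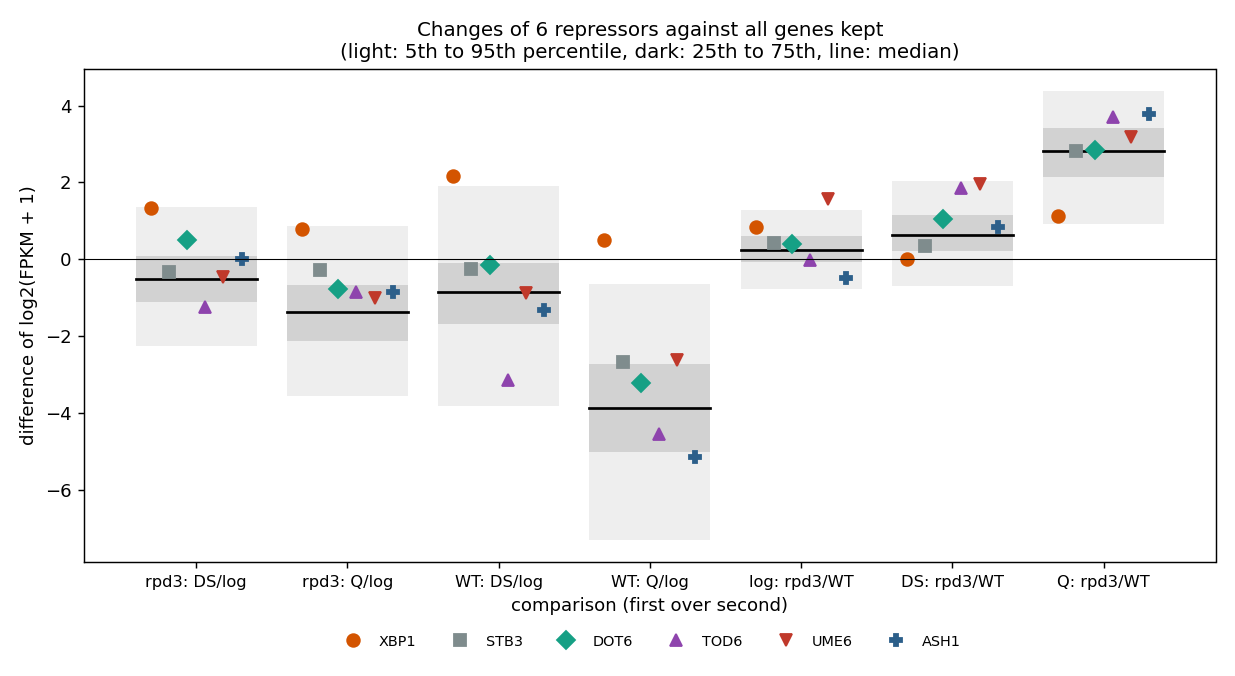
Differences of log2(FPKM + 1) of the 6 repressors in 7 comparisons, over bands that span the 5th to 95th (light) and 25th to 75th (dark) percentiles of all genes kept, with the median as a line. UME6 lies above the light band for mutant over wild type in log cells, XBP1 lies above it for wild-type DS and Q over log, and all 6 members stand above 0 for mutant over wild type in Q cells, of which XBP1, STB3 and DOT6 turn negative with columns rescaled to a common median gene.

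XBP1 encodes the starvation-induced repressor, and its transcript was the lowest of the 6 in log cells of both genotypes. It had 13.8, 36.3 and 24.4 FPKM in mutant log, DS and Q cells, against 7.28, 36.1 and 10.6 FPKM in wild-type cells. The genotypes thus had nearly the same level at DS, while the mutant was higher at the other harvests. In wild-type cells the change was 2.16 for DS over log, where the median gene had -0.85, and 0.49 for Q over log, where the median gene had -3.87. These changes stood at the 95.8th and 97.5th percentiles of all genes. In the mutant they were 1.33 and 0.78, against medians of -0.52 and -1.39, at the 94.9th and 94.7th percentiles.

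Ranked within its own condition, XBP1 stood at the 15.5th, 52.7th and 62.1st percentile in mutant log, DS and Q cells, and at the 11.3th, 67.0th and 89.5th percentile in wild-type cells. Its rank was therefore lower in the mutant at DS and Q, although its FPKM was not. The mutant over wild-type change in Q cells was 1.13, the smallest of the members, at the 6.51st percentile of genes, and it was -2.57 with columns rescaled to a common median gene and 0.74 with a pseudocount of 10. Set against CLN3, the gene of the cyclin that starts the cell cycle, XBP1 stood at 0.171, 0.665 and 0.920 times its FPKM in mutant log, DS and Q cells and at 0.0892, 2.57 and 37.9 times in wild-type cells. A ratio within a condition does not depend on the scale between conditions. The 37.9 rests on a CLN3 level of 0.280 FPKM in wild-type Q cells, which is under 1 FPKM. CLN3 also had the largest mutant over wild-type change in Q cells of 8 cyclin genes, 4.43.

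**Figure D3:**
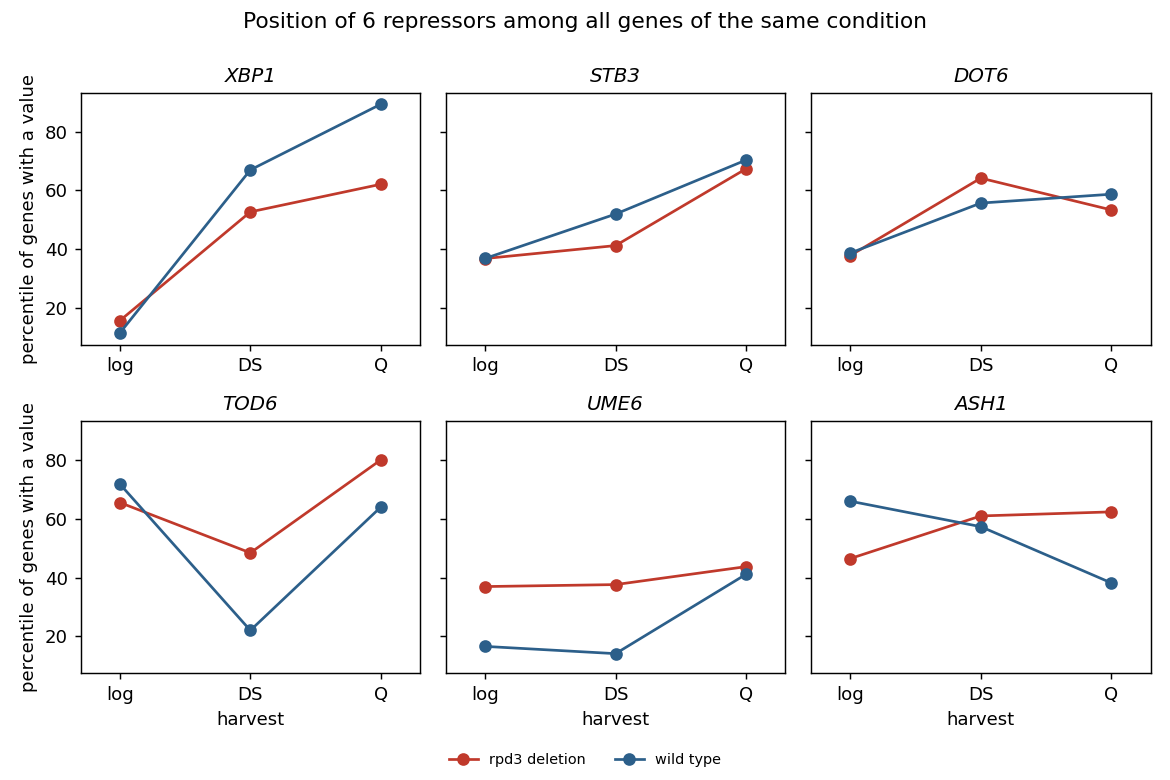
Percentile of each repressor among all genes with a value in the same condition, in the rpd3 deletion (red) and wild type (blue). XBP1 reaches 89.5 in wild-type Q cells and 62.1 in mutant Q cells, TOD6 dips to 22.0 in wild-type DS cells and to 48.4 in mutant DS cells, and UME6 stands at 36.9 in mutant log cells and at 16.5 in wild-type log cells.

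Xbp1 has 4 relatives with the same kind of DNA-binding domain, the products of MBP1, SWI4, PHD1 and SOK2. Their genes had a median change of -0.74 in wild-type DS over log cells (0.11 with columns rescaled), beside the all-gene -0.85. Of the 4, 1 was lower by 2-fold (SOK2, -2.12), where 44.2% of all genes were. None was higher (9.91% of all genes). Among 8 cyclin genes that are, or are related to, genes described under Xbp1, all 8 were lower in wild-type DS than log cells. There 44.2% of all genes were lower, and the list median was -2.32 beside -0.85. In mutant DS over log cells 5 of the 8 were lower (62.5%, against 28.6% of all genes), with a median of -1.15 beside -0.52. Mutant over wild type, 2 of 8 were higher in log cells (25%, against 10.2% of all genes), with a median of 0.62 beside 0.25. At DS 6 of 8 were higher (75%, against 31.3% of all genes), with a median of 1.27 beside 0.64. In Q cells 8 of 8 were higher, where 94.5% of all genes were, with a median of 2.35. The Q median was below the all-gene 2.81 with a pseudocount of 1, but above it with a pseudocount of 0.1 (4.26 against 3.57) and with columns rescaled (0.83 against -0.086); their median level in wild-type Q cells was 0.215 FPKM. CLN3 stood out in Q cells, with 26.5 FPKM in the mutant and 0.280 FPKM in wild type, a change of 4.43. No window of these 8 genes held the letters CTCGAG, which says only that this exact run is not in those windows. The 300 genes in the table whose window did hold them had a median change of -0.93 in wild-type DS over log cells, close to the all-gene value. For the 294 with a wild-type Q value, the Q over log median was -4.41 beside -3.87 (-1.03 beside -0.12 with columns rescaled). Mutant over wild type in Q cells it was 3.09 beside 2.81 (0.57 beside -0.086 with columns rescaled).

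STB3 encodes the protein that binds RRPE. Its transcript had 34.7, 27.2 and 28.1 FPKM in mutant log, DS and Q cells, against 25.6, 21.3 and 3.16 FPKM in wild-type cells. The mutant levels lay within a narrow range at all 3 harvests, and wild-type Q cells alone were low. The mutant over wild-type change was 0.43 in log cells, 0.34 at DS and 2.81 in Q cells, the last equal to the all-gene median of 2.81; with columns rescaled to a common median gene the DS and Q values turned negative, to -0.39 and -0.63. By rank STB3 differed little between genotypes in log and Q cells and was lower in the mutant at DS. It stood at the 36.8th, 41.2nd and 67.4th percentile in mutant log, DS and Q cells, and the 36.8th, 52.0th and 70.4th in wild-type cells. Its ratio to SIN3, the scaffold gene, was 0.376, 0.499 and 0.946 in mutant cells and 0.390, 0.561 and 0.990 in wild-type cells.

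DOT6 encodes the first of the PAC-binding paralogs. It had 35.8, 50.9 and 20.3 FPKM in mutant log, DS and Q cells, against 26.9, 24.0 and 1.97 FPKM in wild-type cells. The mutant level was highest at DS, whereas wild-type log and DS levels were alike. The mutant over wild-type change was 0.40 in log cells, 1.06 at DS and 2.84 in Q cells, beside all-gene medians of 0.25, 0.64 and 2.81. The DS value stood at the 71.3rd percentile of genes. With columns rescaled the DS value was 0.33, under 2-fold, and the Q value was -0.42; with a pseudocount of 10 the DS value was 0.84, also under 2-fold.

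TOD6, the paralog of DOT6, had another course. It had 79.7, 32.8 and 43.7 FPKM in mutant log, DS and Q cells, against 80.5, 8.28 and 2.46 FPKM in wild-type cells. It was the highest member in log cells of both genotypes, at nearly equal levels, and the 2 genotypes parted at DS. The wild-type change for DS over log was -3.14, at the 8.05th percentile of genes, and the mutant change was -1.26, at the 19.8th. Mutant over wild type the change was -0.01 in log cells, 1.86 at DS and 3.69 in Q cells, at the 28.6th, 92.2nd and 83.3rd percentiles. With columns rescaled the 3 values were -0.41, 1.18 and 0.35.

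The paralogs changed places between harvests. TOD6 had 2.23, 0.644 and 2.16 times the FPKM of DOT6 in mutant log, DS and Q cells, and 2.99, 0.346 and 1.25 times in wild-type cells. TOD6 was thus the higher paralog in log and Q cells and DOT6 the higher at DS, in both genotypes, with the wider swing in wild type. The order in wild-type Q cells rests on 2.46 against 1.97 FPKM, 1 low value each. That ratio and the mutant DS ratio are within 2-fold. The distance between the centred profiles of DOT6 and TOD6 over the 6 conditions was 2.58, while STB3 and DOT6 were the closest pair of members at 1.11. The nearest protein-coding neighbour of TOD6 is SAS3, which ends 212 bases away, and the libraries were strand-specific; no other member has a protein-coding neighbour within 300 bases.

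**Figure D4:**
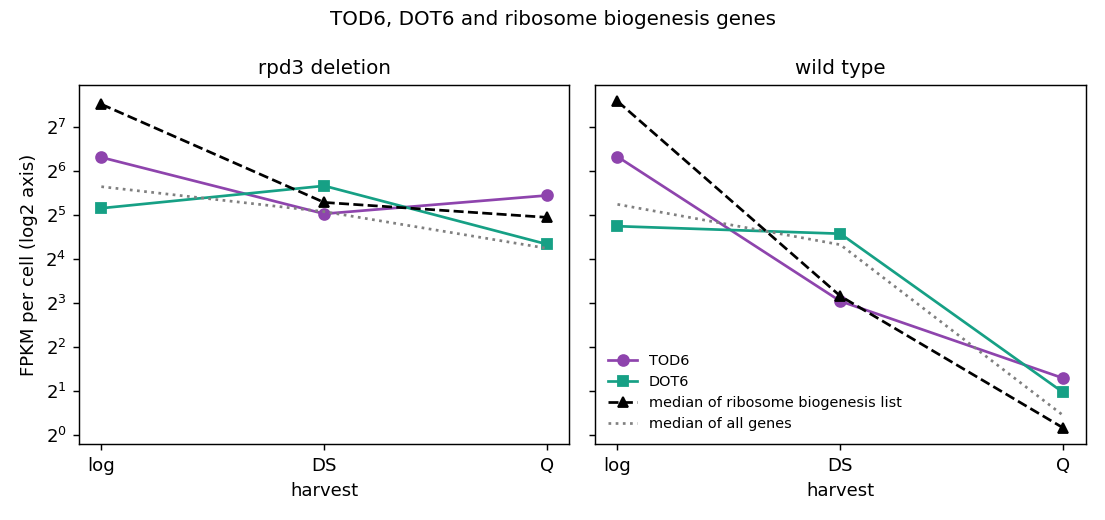
FPKM (log2 axis) of TOD6, DOT6, the median of 49 ribosome biogenesis genes and the median of all genes, at 3 harvests in the rpd3 deletion (left) and wild type (right), 1 value per condition. The ribosome biogenesis median is 39.2 FPKM in mutant DS cells and 8.97 FPKM in wild-type DS cells, and TOD6 is 32.8 and 8.28 FPKM in the same conditions.

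The 49 ribosome biogenesis genes were listed as targets of Dot6, Tod6 and Stb3, whose binding to them was not measured here. Their median was 184, 39.2 and 31.0 FPKM in mutant log, DS and Q cells, against 193, 8.97 and 1.13 FPKM in wild-type cells. In wild-type DS over log cells all 49 were lower (44.2% of all genes), with a median of -4.22 beside the all-gene -0.85. In mutant DS over log cells all 48 with a value were lower as well (28.6% of all genes), with a median of -2.20 beside -0.52. Mutant over wild type, none of 49 was past 2-fold in log cells (median -0.07 beside the all-gene 0.25), and 47 of 48 were higher at DS (median 2.09 beside 0.64, 31.3% of all genes higher). In Q cells 49 of 49 were higher, where 94.5% of all genes were, with a median of 3.63 beside 2.81. With columns rescaled the 3 medians were -0.47, 1.40 and 0.78. At DS the exception was TIF6, an assembly factor of the large ribosomal subunit, with 155 FPKM in the mutant and 96.9 FPKM in wild type.

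Values of single genes show the size of these changes. NSR1, the yeast nucleolin, had 350, 33.1 and 43.0 FPKM in mutant log, DS and Q cells, against 405, 3.82 and 0.889 FPKM in wild-type cells. DBP2, an RNA helicase gene, had 453, 33.1 and 148 FPKM in mutant cells and 618, 4.14 and 3.07 FPKM in wild-type cells. HAS1, another helicase gene, had the largest mutant over wild-type change at DS, 2.85, with 42.3 FPKM in the mutant and 5.03 FPKM in wild type. DBP2 was also the one gene of the list at least 2-fold higher in mutant Q than mutant DS cells, by 2.13.

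TOD6 lay closest of the 6 members to the median profile of these genes, at a distance of 1.79, against 2.76 for ASH1, 3.24 for UME6, 3.66 for DOT6, 3.72 for STB3 and 6.32 for XBP1. PAC letters stood in 28 of the 49 windows, RRPE letters in 42, both in 23 and at least either in 47. Over all genes with PAC in the window (236, TOD6 among them), the median was -2.80 in wild-type DS over log cells, and 187 of 233 were higher in the mutant at DS (80.3%, against 31.3% of all genes), with a median of 1.71 beside 0.64, or 1.01 with columns rescaled. In log cells 16 of the 236 were higher in the mutant, 6.78% against 10.2% of all genes, and none was lower. For the 533 genes with RRPE the median was -2.50 in wild-type DS over log cells and 1.10 for mutant over wild type at DS, or 0.40 with columns rescaled. These windows hold the ribosome biogenesis genes themselves, so the figures are not separate from the list.

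UME6 encodes the repressor of meiotic genes. It had 34.9, 24.8 and 16.7 FPKM in mutant log, DS and Q cells, against 11.1, 5.59 and 0.965 FPKM in wild-type cells. The mutant level was above the wild-type level at each harvest, and UME6 was the lowest member at DS in both genotypes. The mutant over wild-type change was 1.57 in log cells, at the 97.3rd percentile of genes, 1.97 in DS cells, at the 94.0th, and 3.17 in Q cells, at the 65.2nd. With columns rescaled to a common median gene the same changes were 1.19, 1.32 and 0.31. UME6 was thus the member with the largest change between genotypes in log cells and at DS, on the deposited and on the rescaled values. It was not so in Q cells, nor at DS with a pseudocount of 10, where TOD6 had 1.23 and UME6 had 1.16.

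From log to DS UME6 stayed near the median gene in both genotypes. Its DS over log change was -0.48 in the mutant and -0.87 in wild type, beside all-gene medians of -0.52 and -0.85. Its Q over log change was -1.02 in the mutant, beside a median of -1.39, and -2.62 in wild type, beside -3.87, at the 64.3rd and 77.0th percentiles; with columns rescaled these were 0.33 and 1.20. Its rank was the 36.9th, 37.6th and 43.7th percentile in mutant log, DS and Q cells, and the 16.5th, 14.0th and 41.2nd in wild-type cells. Its ratio to SIN3 was 0.378, 0.455 and 0.562 in mutant cells and 0.168, 0.147 and 0.302 in wild-type cells.

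Of 17 genes known to be repressed through Ume6, 13 were higher in mutant than wild-type log cells (76.5%, against 10.2% of all genes). None was lower (3.38% of all genes), and the median was 1.59 beside the all-gene 0.25. At DS 13 of 16 were higher (81.2%, against 31.3% of all genes), with a median of 1.92 beside 0.64. In Q cells all 17 were higher, where 94.5% of all genes were, so that count is near the background. The Q median was 3.76 beside 2.81. With columns rescaled the 3 medians were 1.22, 1.37 and 1.93. INO1, the gene of inositol phosphate synthase, had 150, 1970 and 264 FPKM in mutant log, DS and Q cells, against 12.6, 53.3 and 3.76 FPKM in wild-type cells. CAR1 had 431, 550 and 114 FPKM in mutant cells and 101, 81.2 and 1.62 FPKM in wild-type cells. SPO16, a meiotic gene, had 20.5, 34.7 and 20.0 FPKM in mutant cells and 5.83, 1.31 and 0.0707 FPKM in wild-type cells.

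The list also had members that stayed within 2-fold. MEK1, a meiotic kinase gene, had 4.15 FPKM in mutant and 3.33 FPKM in wild-type log cells, a change of 0.25. At DS REC114 had 34.9 FPKM in the mutant and 26.9 FPKM in wild type, a change of 0.37. The URS1 core letters stood in 10 of the 17 windows. Over all 68 genes with those letters, 23 were higher in mutant than wild-type log cells (33.8%, against 10.2% of all genes). In the same comparison 1 was lower, and the median was 0.76 beside 0.25. At DS 35 of 66 were higher (53%, against 31.3% of all genes) and 1 was lower, with a median of 1.16 beside 0.64. With columns rescaled these medians were 0.39 and 0.48.

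**Figure D5:**
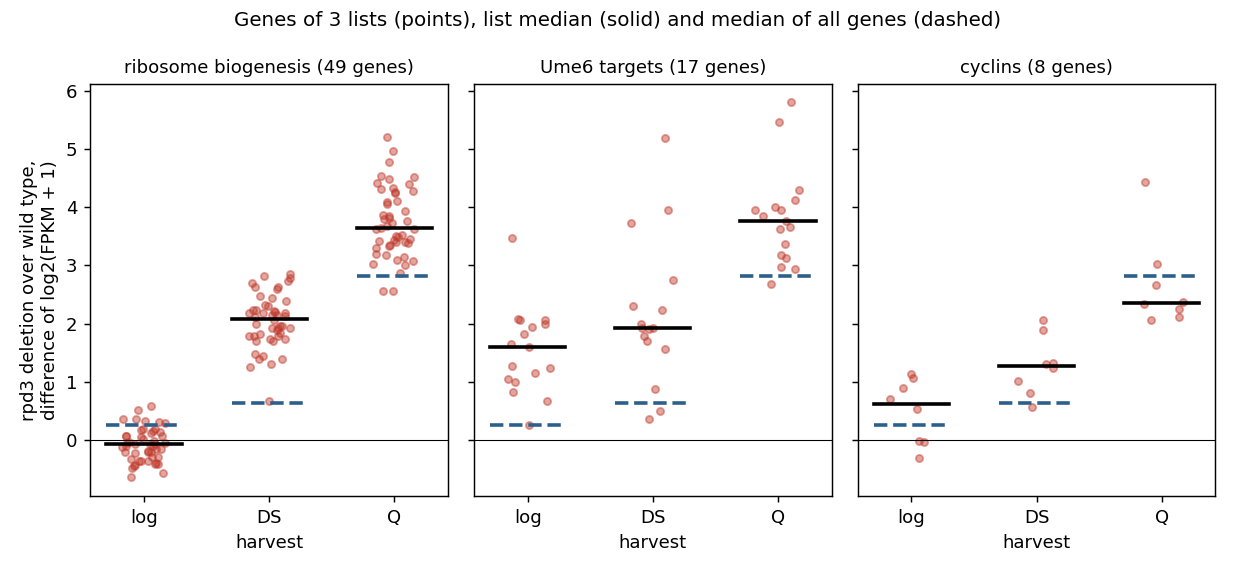
Differences of log2(FPKM + 1), rpd3 deletion over wild type, for genes of 3 lists at each harvest; points are genes, solid lines the list median and dashed lines the median of all genes kept. The ribosome biogenesis median is -0.07 in log cells and 2.09 at DS, while the Ume6 target median is 1.59 in log cells and 1.92 at DS.

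As the plot of the 3 lists shows, the lists differed in the harvest at which their medians stood apart from all genes. The Ume6 targets did so in log cells already, the ribosome biogenesis genes at DS. Among the repressor genes, UME6 had changes of 1.57 and 1.97 at log and DS, TOD6 had -0.01 and 1.86, DOT6 had 0.40 and 1.06, and STB3 had 0.43 and 0.34; with columns rescaled the DS values of DOT6 and STB3 were 0.33 and -0.39. Both sets of values come from the same libraries, and no link between a repressor's transcript and its targets was tested.

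Ume6 works with other regulators. Of 7 genes for its partners and their kinases none was higher in mutant than wild-type log cells (10.2% of all genes). In the same comparison 1 was lower (3.38% of all genes), and the median was 0.32 (-0.07 with columns rescaled). The lower one was IME1, the gene of the activator that turns Ume6 to activation in meiosis, with 0.0917, 4.28 and 17.6 FPKM in mutant log, DS and Q cells, against 2.72, 3.24 and 0.489 FPKM in wild-type cells. RIM11, the kinase gene needed for that switch, had 49.6, 112 and 62.6 FPKM in mutant cells and 39.6, 79.6 and 9.82 FPKM in wild-type cells.

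ASH1 encodes the daughter-cell repressor, whose mRNA is carried to the bud. It had 45.4, 45.6 and 24.6 FPKM in mutant log, DS and Q cells, against 64.6, 25.2 and 0.859 FPKM in wild-type cells. Its mutant level was under the wild-type level in log cells and above it at DS and Q. The mutant over wild-type change was -0.50 in log cells, at the 8.30th percentile of genes, 0.83 in DS cells, at the 60.6th, and 3.78 in Q cells, at the 85.7th; none but the last passed 2-fold. The wild-type change in Q over log cells, -5.14, was the lowest of the members, beside an all-gene median of -3.87. The mutant change for DS over log was 0.01 and the wild-type change was -1.32.

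The ranks of ASH1 ran in opposite directions: the 46.5th, 61.0th and 62.4th percentile in mutant log, DS and Q cells, and the 66.1st, 57.4th and 38.2nd in wild-type cells. HO, the target of Ash1, was past 2-fold higher in the mutant in log cells (1.11), with 88.7, 9.59 and 5.06 FPKM in mutant log, DS and Q cells, against 40.4, 1.35 and 0.166 FPKM in wild-type cells. The 6 genes for transport of the ASH1 mRNA had a median change of 0.33 in log cells, 1.21 at DS and 3.50 in Q cells, mutant over wild type, beside the all-gene 0.25, 0.64 and 2.81; with columns rescaled these were -0.07, 0.49 and 0.92. MYO4, the motor gene, had 42.9 FPKM in mutant and 13.2 FPKM in wild-type DS cells.

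The complex that the repressors bring in was measured too. SIN3 had 92.3, 54.5 and 29.8 FPKM in mutant log, DS and Q cells, against 65.6, 38.0 and 3.20 FPKM in wild-type cells. Of 7 genes for subunits found only in the large complex, none was past 2-fold in mutant against wild-type log cells (median 0.66 beside 0.25). At DS 2 were higher, SAP30 by 1.33 and CTI6 by 1.00 (28.6%, against 31.3% of all genes), with a median of 0.58 beside 0.64. In Q cells all 7 were higher, where 94.5% of all genes were, with a median of 2.78 beside the all-gene 2.81. With columns rescaled the DS and Q medians were -0.14 and -0.62. EAF3 and RCO1, whose products are in the small Rpd3 complex but not the large one, were within 2-fold in log cells, with changes of 0.92 and 0.06. Of 7 other regulators that contact Sin3 or Rpd3, 2 were higher in log cells (10.2% of all genes), STB2 by 1.08 and STB5 by 1.11. The list median was 0.76 beside the all-gene 0.25. UME6, at 1.57, was above each of these genes.

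Genes that act on the switch to starvation had mixed values. SCH9, the kinase gene downstream of TOR, had 129, 74.7 and 54.3 FPKM in mutant log, DS and Q cells, against 70.0, 41.3 and 6.75 FPKM in wild-type cells. MSN4, a stress activator gene, had 38.2 FPKM in mutant and 75.5 FPKM in wild-type log cells, a change of -0.96, which is just within 2-fold.

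The genes most like each member were found among 4852 genes by the distance between centred log2 profiles over the 6 conditions. UME6 was nearest to IPL1, the Aurora kinase gene, at a distance of 0.19, then to REC102 at 0.27, which is itself in the list of Ume6 targets, and to MPS2 at 0.34. IPL1 had 16.8, 10.7 and 7.35 FPKM in mutant log, DS and Q cells, against 5.42, 2.19 and 0.0141 FPKM in wild-type cells. STB3 was nearest to MTC4 (0.23), SPO71 (0.25) and SCD5 (0.28), and DOT6 to SNA4 (0.26), ICS3 (0.27) and ISM1 (0.29). ASH1 was nearest to DOP1 (0.39), ERV15 (0.43) and SKO1 (0.49), and TOD6 to POP3 (0.51), TAD2 (0.55) and UPC2 (0.59). XBP1 had the least close neighbours of the 6, COX2 (0.56), HFD1 (0.56) and SAF1 (0.62), and HFD1 had 92.0, 178 and 138 FPKM in mutant log, DS and Q cells, against 54.9, 290 and 63.8 FPKM in wild-type cells. These distances describe 6 values per gene and carry no test.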

How the data were processed

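RNA was sequenced from 14 strand-specific, ribosomal RNA-depleted libraries with ERCC spike-in transcripts, per the labels' protocols. Tools named in the submitters' processing notes are TopHat2, Cufflinks 2.2.1, Cuffdiff, SAMtools and CASAVA; for settings, build and annotation these sources give nothing. In the deposited table each value is a log2 FPKM, scaled by the authors to per-cell RNA content through the spike-ins, as the series design text says. It has 1 value per condition; how libraries were combined is not stated, and depth is unknown. The log base was read from the values: FPKM times length in kilobases came to 1288200 over the wild-type log column with base 2 and to 31055485 with base e.

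Values were turned back to FPKM. Of 6602 named rows, 4 rows of repeated names were left out, leaving 6598 genes. In the mutant DS column 108 values that repeat another column were left out, a choice made after the data were seen; no member is among them, but ZIP1 and YTM1 are. Kept were 6524 genes that reached 1 FPKM in any condition, all 6 members included. A pseudocount of 1 was used, and 9 comparisons were made, with no test. Of the table's names 5961 matched a protein-coding gene of the R64 reference, which gave the sequences; letters and positions are of that reference. The steps were tested on simulated data. The members, the 12 gene lists and the rule for naming (all members, RPD3, up to 4 genes with the largest change of a list or against it, and the 3 nearest genes) were chosen with earlier results of these data known; some list results are not reported here; other list genes named were chosen after their values were seen. Alternatives were pseudocounts of 0.1 and 10, no filter, columns rescaled to a common median gene, and windows of 250 bases before the start codon only. Python 3.11.15, pandas 2.3.3, numpy 2.4.6 and matplotlib 3.10.9 were used.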

Additional observations from a re-analysis of the deposited data

Results flagged for a closer look

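In 4 members the effect in one setting had the opposite sign to that in the other. Each difference below is of log2(FPKM + 1) values, rests on 1 value per condition and was not tested. Where an effect is near 0, its sign carries little.

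STB3 had a Q over DS change of 0.05 in the mutant and -2.42 in wild type, a difference of 2.47. DOT6 had a DS over log change of 0.50 in the mutant and -0.16 in wild type, a difference of 0.66. TOD6 had a mutant over wild-type change of -0.01 in log cells, against 1.86 in DS cells, a log minus DS difference of -1.88, and against 3.69 in Q cells, a log minus Q difference of -3.71. The Q over DS change of TOD6 was 0.41 in the mutant and -1.42 in wild type, a difference of 1.83. ASH1 had a mutant over wild-type change of -0.50 in log cells, against 0.83 in DS cells, a log minus DS difference of -1.33, and against 3.78 in Q cells, a log minus Q difference of -4.28. The DS over log change of ASH1 was 0.01 in the mutant and -1.32 in wild type, a difference of 1.33. With columns rescaled to a common median gene some signs no longer differed: STB3 Q over DS was 0.86 in the mutant and 1.10 in wild type, DOT6 DS over log 1.05 and 0.73, and TOD6 Q over DS 1.23 and 2.06, so that the differences for STB3 and TOD6 turned. Over all genes the median change differed between genotypes in the same direction, by 0.40 for DS over log and 2.52 for Q over log; the all-gene Q over DS median was -0.81 in the mutant and -2.90 in wild type.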

How the results depend on the processing

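No paired analysis was possible because the table has 1 value per condition and its columns carry no replicate numbers; leaving out a replicate could not be run for the same reason. Pseudocounts of 0.1 and 10 and no filter reversed no member's change; with a pseudocount of 10 the counts became 0 higher in mutant DS over log, 0 lower in mutant Q over log, 4 lower in wild-type Q over log and in Q over DS, and 2 and 5 higher in mutant over wild type at DS and Q. Rescaling each column to a common median gene moved most counts, by its own construction in Q cells: mutant DS over log had 2 higher and 0 lower, mutant Q over log 2 higher and 0 lower, mutant Q over DS 1 higher and 0 lower, wild-type DS over log 1 lower, wild-type Q over log 3 higher and 1 lower, wild-type Q over DS 4 higher and 0 lower, and mutant over wild type in Q cells 1 higher and 1 lower. Among changes of at least 2-fold it turned the sign of 12: XBP1 (2.10 in wild-type Q over DS, -2.57 in mutant over wild-type Q), STB3 (1.74 and 1.10 in wild-type Q over log and over DS, -0.63 in mutant over wild-type Q), DOT6 (0.99, 0.27 and -0.42 in the same 3), TOD6 (2.06 in wild-type Q over DS) and UME6 (1.20 and 1.26 in wild-type Q over log and over DS, 0.33 in mutant Q over log). Another 12 changes under 2-fold also turned sign, among them mutant Q over log of STB3 (1.07), TOD6 (0.53) and ASH1 (0.50). The median of the large-complex subunits became -0.62 and that of all genes -0.086 for mutant over wild type in Q cells. By Pearson correlation in place of distance IPL1 and MPS2 were again among the 3 genes most like UME6, and RAS1, RPL22B and NOP14 were most like TOD6. Values under 1 FPKM in wild-type Q cells rest on an unknown number of reads.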
